A study of Mus musculus with 4 samples.

Results

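Interferon response genes were followed here through 9 members, Stat2, Irf7, Irf9, Isg15, Ifit1, Ifit3, Bst2, Oasl2 and Rtp4, chosen by name from the 22084 genes of the joined deposited tables. All 9 were found. The series asks what loss of Tcf20, a nuclear protein that acts on transcription, does in the developing mouse brain. Messenger RNA was sequenced from the telencephalon, the front of the forebrain, which becomes cortex and basal ganglia, of mouse embryos at E13.5 (days of embryonic development) of the strain B6D2F2, a mixed background that the groups shared. No treatment is named in the labels, so the values describe interferon response genes in embryos without a stated immune stimulus.

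The libraries KO26F and KO23M, called KO below, are labelled TCF20-/-. WT25F is labelled TCF20+/+. WT22M is titled as wild type and has the genotype TCF20+/-, so whichever label holds, it and WT25F have at least 1 intact allele, and they are named carriers. Each group thus holds 2 libraries, and the labels do not say whether embryos were pooled, how the allele was made or whether littermates were used. Tissue labels give telencephalon and the extraction protocol gives cerebral cortex. Nothing states that the libraries of a group came from separate embryos, so the p-values measure the spread between these libraries only.

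Depth was even, with 17791641 to 18509743 counts per library. Detected genes numbered 20626 to 21811, with the most in WT25F. In each of the other libraries, 1069 to 1298 unlisted genes were set to 0, which may lower their numbers of detected genes. Tcf20 stood at 98.6 and 104 CPM, the read count scaled to the total of the library, in the KO libraries and at 118 and 111 CPM in WT25F and WT22M (log2 fold change -0.18, SE 0.10, edgeR adjusted p = 1). The deleted segment of Tcf20, not given in the sources used here, may lie anywhere, so a count over the whole gene does not check the genotype labels. Among markers of the labelled tissue, the cortical progenitor factor Emx1 stood at 107 to 140 CPM per library, Pax6 at 60.9 to 71.6 CPM, and the cortical neuron factors Tbr1 at 293 to 362 CPM and Neurod6 at 620 to 697 CPM.

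Type I interferons are secreted by cells that sense foreign or misplaced nucleic acid, and they act on neighbouring cells through the receptor chains Ifnar1 and Ifnar2 and the kinases Jak1 and Tyk2. The kinases phosphorylate STAT proteins, among them Stat2, which joins Irf9 in a factor complex, ISGF3, that binds the interferon-stimulated response element (ISRE) upstream of its targets. Among these targets are Irf7, which in turn drives further interferon production, and effectors such as Isg15, Ifit1, Ifit3, Bst2, Oasl2 and Rtp4. In the brain, microglia, endothelium and meninges are known for strong interferon responses, and a low tonic level is found without infection.

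The promoter windows show which members carry the response element close to the start site. They were taken from RefSeq on GRCm38.p6, from 250 bases before to 50 bases after the start, and 8 of the 9 members had a window, the exception being Rtp4. An ISRE-like match was searched as GAAANNGAAA or, on the other strand, TTTCNNTTTC, with overlapping matches counted separately. It was present in 5 of the 8 members (62.5%), each gene counted once, against 1131 of all 32851 windows of the same length (3.44%). The stretches below run 5′ to 3′ in the direction of the gene, with 25 bases on each side of the matches, and the capitals mark ISRE-like matches.
Stat2, chr10:128270251-128270310, plus strand: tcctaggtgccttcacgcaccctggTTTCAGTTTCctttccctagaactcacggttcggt
Isg15, chr4:156200850-156200921, minus strand: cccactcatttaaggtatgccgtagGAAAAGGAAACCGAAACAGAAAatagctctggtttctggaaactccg
Ifit1, chr19:34640760-34640838, plus strand: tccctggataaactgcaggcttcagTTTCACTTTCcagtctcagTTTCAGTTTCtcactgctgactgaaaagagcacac
Ifit3, chr19:34583348-34583441, plus strand: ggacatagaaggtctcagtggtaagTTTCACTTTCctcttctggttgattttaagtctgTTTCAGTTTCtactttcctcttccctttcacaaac
Bst2, chr8:71537562-71537627, minus strand: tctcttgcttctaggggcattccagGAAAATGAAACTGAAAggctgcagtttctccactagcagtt

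Isg15 held 3 overlapping matches, whose first bases lie at -78, -72 and -66, counted from the start site. Ifit1 held 2 separate matches (-104 and -85), as did Ifit3 (-156 and -122). Bst2 held 2 overlapping matches (-130 and -124), and Stat2 a single match farther out, at -222. Ifit1 and Ifit3, which lie in the same cluster on chromosome 19, carry the same pair of matched sequences in the same order. A GAS-like match (TTCNNNGAA, the same letters on both strands), the element of STAT dimers, was present only in Bst2 among the 8 members (12.5%), at -136 and overlapping its first ISRE-like match, against 8.30% of all windows.

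Irf7, Irf9 (which has 2 RefSeq start windows) and Oasl2 held neither match, which says only that these letters are absent from the windows. The 120 bases before the start of Irf7 and Oasl2, the pair of members without a match whose KO and carrier values lay farthest apart, are shown for comparison with those above.
Irf7, chr7:141266425-141266544, minus strand: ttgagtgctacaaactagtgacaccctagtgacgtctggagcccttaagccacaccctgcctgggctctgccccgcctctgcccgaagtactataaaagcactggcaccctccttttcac
Oasl2, chr5:114896814-114896933, plus strand: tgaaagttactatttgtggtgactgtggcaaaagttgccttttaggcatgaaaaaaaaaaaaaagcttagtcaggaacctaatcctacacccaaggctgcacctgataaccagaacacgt

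**Figure D1:**
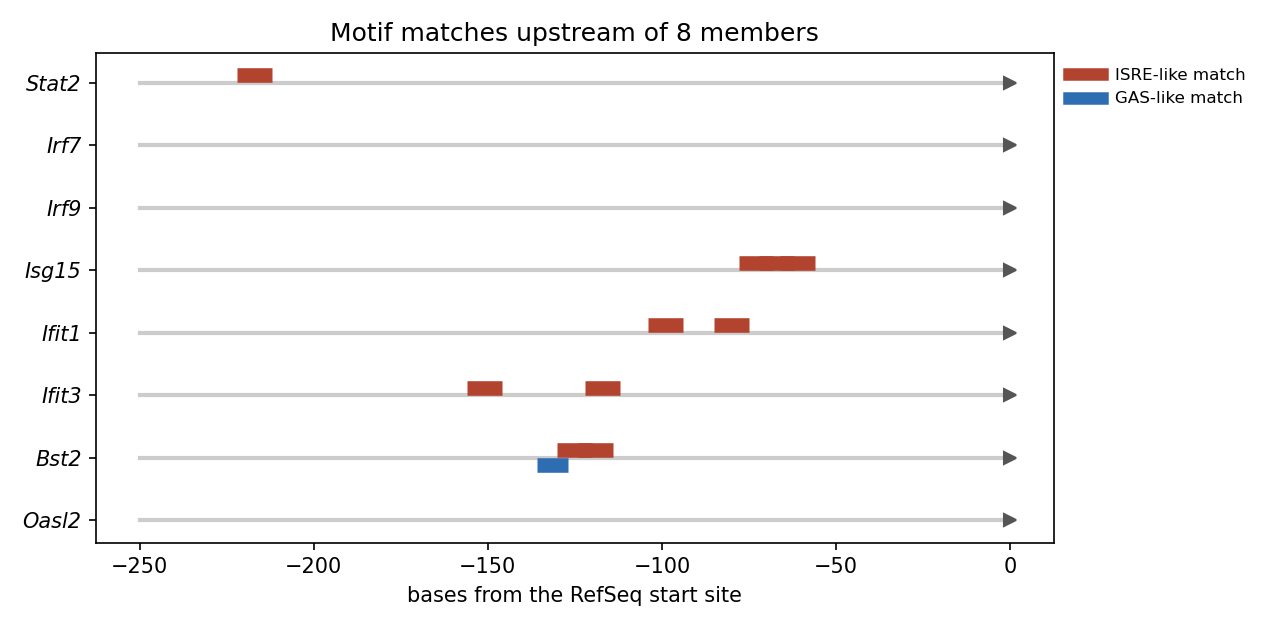
Positions of ISRE-like (red, above the line) and GAS-like (blue, below the line) matches in the 250 bases before the RefSeq start of the 8 members with a promoter window; the x axis gives bases from the start site and the arrow the start. Stat2, Isg15, Ifit1, Ifit3 and Bst2 hold ISRE-like matches that begin between -222 and -66, and Irf7, Irf9 and Oasl2 hold none.

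The first comparison asked whether the members differed between KO and carriers. No member passed the test, while 6 of the 9 (Irf7, Irf9, Ifit3, Bst2, Oasl2 and Rtp4) were lower in both KO libraries than in both carriers and 0 were higher in both. Among all genes tested, 13.4% were lower in both KO libraries and 13.6% higher in both. All 6 members are among the 8 with enough counts to be tested, and the order of Ifit3 was fixed by the filter on low counts. The edgeR quasi-likelihood test called 0 of the 8 members with enough counts, against 10 of 16252 genes (0.0615%). Of the 8, 5 had an unadjusted p under 0.05, against 2.86% of all genes tested (464 of 16252), and DESeq2 called 0 as well. Of these 5, Ifit3 passed the filter on low counts through the carriers alone. The members and the gene lists below were chosen with earlier results of these data known. Their shares beside those of all genes are thus descriptive and give no independent support for a difference. The median log2 fold change of the 8 was -0.66, with 7 negative (Stat2 rounds to 0.00) and 1 positive, and the median of all genes tested was 0.00, with 8020 negative and 8232 positive. The number of genes called over the whole table was 48 when KO26F was left out, 65 for KO23M, 100 for WT25F and 59 for WT22M, and 0 members were called in each case. In these bulk libraries, fewer cells of a type and less RNA per cell cannot be told apart.

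**Figure D2:**
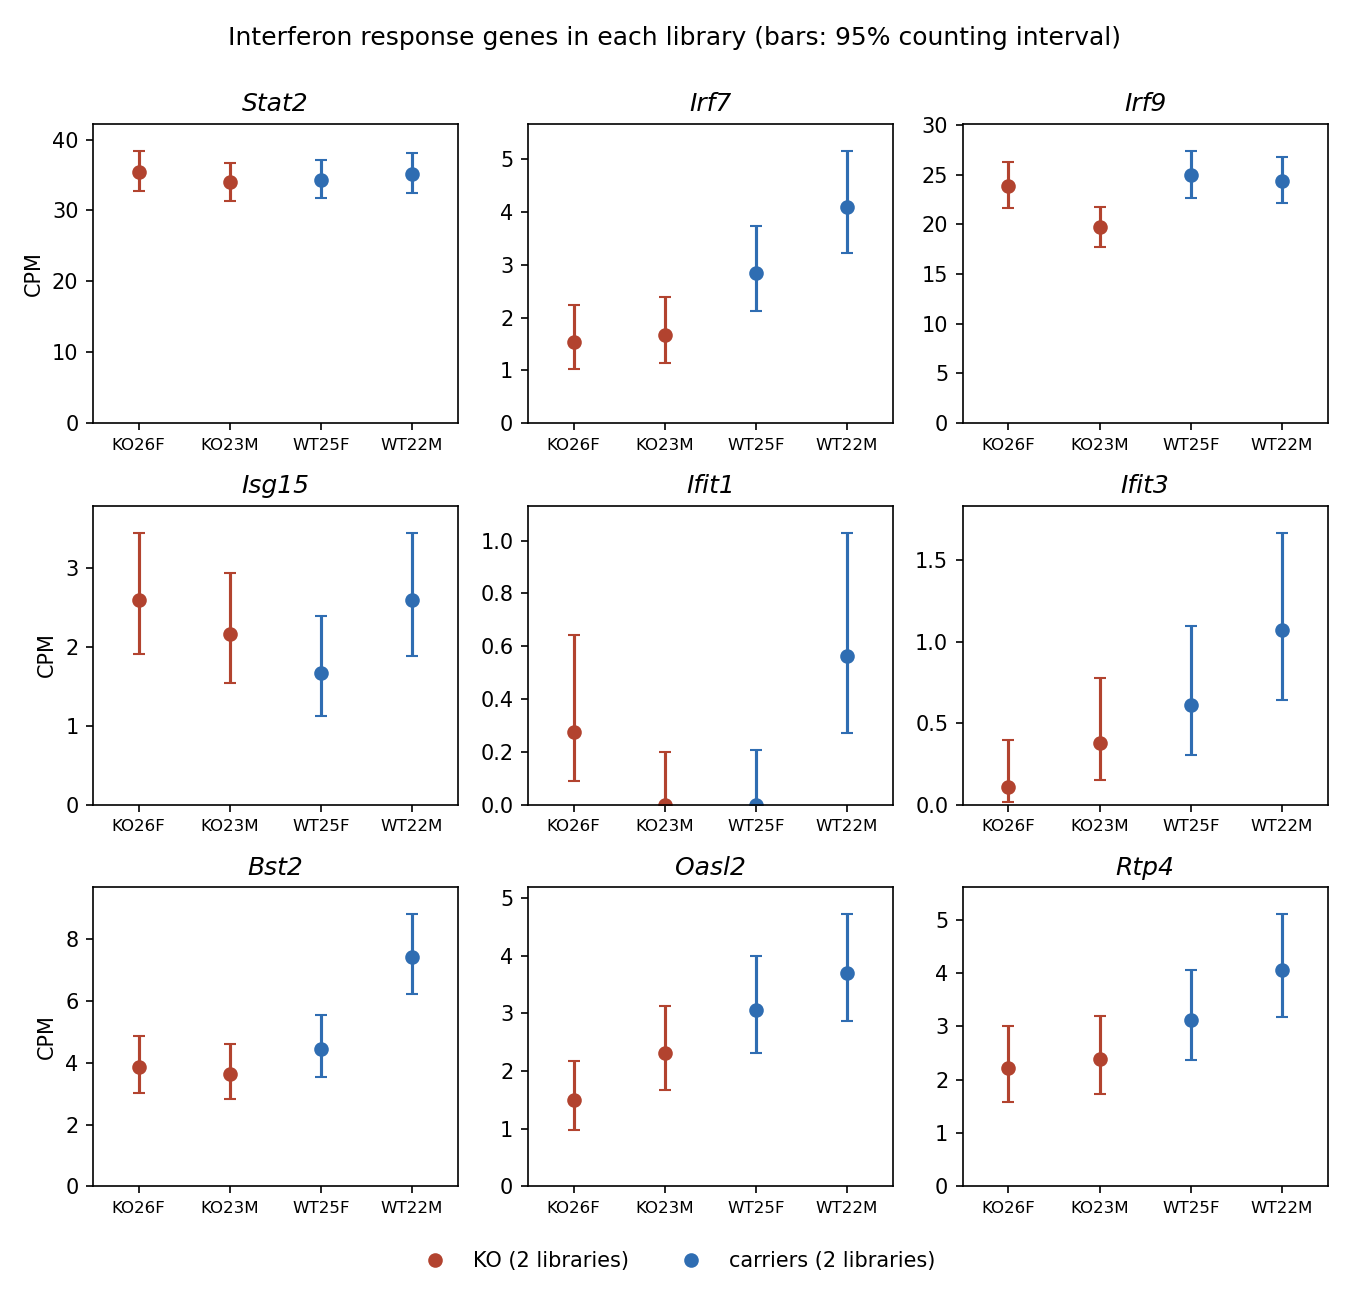
CPM of each of the 9 members (y axis, linear, from 0) in the 4 libraries (x axis), with KO in red and carriers in blue; points are single libraries and bars are 95% counting intervals. Irf7, Irf9, Ifit3, Bst2, Oasl2 and Rtp4 lie lower in both KO libraries than in both carriers, and Stat2, Isg15 and Ifit1 overlap.

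The transcription factors differed in level and in pattern. Stat2 (ENSMUSG00000040033, chr10:128270559-128292849, plus strand, protein coding), the subunit of ISGF3 that activates transcription, was measured at 35.5 and 34.0 CPM in KO26F and KO23M and at 34.3 and 35.2 CPM in WT25F and WT22M. The KO values enclosed the carrier values, so the groups overlapped. The means were 34.8 ± 1.09 CPM in KO and 34.8 ± 0.646 in carriers (SD, n = 2 each), and the log2 fold change was 0.00 (SE 0.12, edgeR adjusted p = 1). Between 616 and 644 reads per library were behind these values, so Stat2 was the most precisely measured member.

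Irf9 (ENSMUSG00000002325, chr14:55603571-55610030, plus strand), the DNA-binding subunit of ISGF3, was measured at 23.9 and 19.7 CPM in KO26F and KO23M and at 25 and 24.4 CPM in WT25F and WT22M. KO23M was the low library, and KO26F lay just under the carriers. The log2 ratio of KO26F to WT22M was -0.03, with a 95% counting interval of -0.22 to 0.17. The means were 21.8 ± 2.99 CPM in KO and 24.7 ± 0.405 in carriers (SD, n = 2 each), and the log2 fold change was -0.18 (SE 0.14, edgeR adjusted p = 1), or -0.31 without KO26F and -0.07 without KO23M. Irf9 overlaps Rnf31 on the same strand by 123 exonic bases, and reads there may count for either gene or neither.

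Irf7 (ENSMUSG00000025498, chr7:141262706-141266481, minus strand), the factor that amplifies interferon production, had the smallest p of the members. It was measured at 1.54 and 1.67 CPM in KO26F and KO23M and at 2.84 and 4.10 CPM in WT25F and WT22M (28, 31, 51 and 73 reads). The KO libraries lay close together and beneath both carriers, and WT22M was the highest. The means were 1.61 ± 0.0920 CPM in KO and 3.47 ± 0.892 in carriers (SD, n = 2 each). The log2 fold change was -1.11 (SE 0.34, unadjusted p = 0.00310, rank 50 among 16252 genes), which did not pass (edgeR adjusted p = 0.960).

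For Irf7 the difference was also seen in single pairs of libraries beyond counting error. The log2 ratio was -0.88 for KO26F over WT25F (95% counting interval -1.60 to -0.19) and -1.29 for KO23M over WT22M (-1.95 to -0.67). Between the carriers, WT22M over WT25F gave 0.53 (-0.01 to 1.08), so the interval just reached 0. These intervals leave out the spread between embryos. Irf7 overlaps Phrf1 on the opposite strand by 45 bases of its 3776 exonic bases, and the strand setting used in counting has no stated value in the labels or headers.

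The effectors were sparse, and their summed level separated the KO libraries from the carriers. The 6 effectors Isg15, Ifit1, Ifit3, Bst2, Oasl2 and Rtp4 summed to 10.5 and 10.9 CPM in KO26F and KO23M and to 12.9 and 19.4 CPM in WT25F and WT22M (191, 201, 232 and 345 reads). WT22M stood apart from the other libraries, and WT25F was nearer to the KO libraries than to WT22M. The mean of the sums was 10.7 CPM in KO and 16.2 in carriers, a log2 difference of -0.60. Bst2 was the largest part of the effector sum in each library. The sums of the 3 factors gave -0.11 (61.0, 55.4, 62.1 and 63.7 CPM in the same order). Stat2 and Irf9 made up most of that sum, so it hides Irf7, whose log2 fold change was -1.11. The sums thus do not set factors as a class apart from effectors.

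Oasl2 (ENSMUSG00000029561, chr5:114896936-114912234, plus strand), an antiviral protein related to oligoadenylate synthetases, was measured at 1.49 and 2.32 CPM in KO26F and KO23M and at 3.06 and 3.71 CPM in WT25F and WT22M. KO26F was the lowest, and both KO libraries lay beneath both carriers. The log2 fold change was -0.83 (SE 0.33, edgeR unadjusted p = 0.0206, adjusted p = 1), with means of 1.91 ± 0.589 and 3.39 ± 0.456 CPM (SD, n = 2 each). The log2 ratio was -1.04 for KO26F over WT25F (95% counting interval -1.76 to -0.35) and -0.68 for KO23M over WT22M (-1.26 to -0.10).

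Rtp4 (ENSMUSG00000033355, chr16:23520291-23614222, plus strand), an interferon-induced protein first known as a chaperone of receptors, was measured at 2.21 and 2.38 CPM in KO26F and KO23M and at 3.12 and 4.05 CPM in WT25F and WT22M. The groups did not overlap, and the order of the libraries was that of Irf7. The log2 fold change was -0.65 (SE 0.31, edgeR unadjusted p = 0.0455, adjusted p = 1), with means of 2.29 ± 0.121 and 3.58 ± 0.655 CPM (SD, n = 2 each). KO26F over WT25F gave a log2 ratio of -0.50 whose 95% counting interval reached 0 (-1.12 to 0.11), and KO23M over WT22M gave -0.77 (-1.34 to -0.21). The unit shares 296 exonic bases with Gm45338 on the same strand, a transcript with 19 to 29 reads per library.

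Bst2 (ENSMUSG00000046718, chr8:71534255-71537456, minus strand), tetherin, which holds budding virus particles at the cell surface, was measured at 3.86 and 3.62 CPM in KO26F and KO23M and at 4.46 and 7.42 CPM in WT25F and WT22M. WT22M stood apart, and WT25F lay only slightly higher than the KO libraries. The log2 fold change was -0.67 (SE 0.27, edgeR unadjusted p = 0.0199, adjusted p = 1), with means of 3.74 ± 0.171 and 5.94 ± 2.09 CPM (SD, n = 2 each). It was -0.24 without WT22M. The log2 ratio of WT22M to WT25F was 0.73 (95% counting interval 0.32 to 1.15), as far apart as KO from carriers.

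Ifit3 (ENSMUSG00000074896, chr19:34583531-34588731, plus strand), which binds Ifit1 and supports its capture of viral RNA, had 2 and 7 reads in KO26F and KO23M and 11 and 19 reads in WT25F and WT22M. In CPM these were 0.110, 0.378, 0.613 and 1.07, so the groups did not overlap and KO26F lay under the limit of 0.165 CPM that a count of 0 allows. The log2 fold change was -1.75 (SE 0.71, edgeR unadjusted p = 0.0210, adjusted p = 1), the most negative of the members. The pooled reads of KO over carriers gave a ratio of 0.293 (95% counting interval 0.122 to 0.632), and KO26F over WT25F alone gave 0.180 (0.0194 to 0.825). Ifit3 passed the filter on low counts through the carriers alone, and its near-identical copy Ifit3b, not analysed here, may share its reads.

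Ifit1 (ENSMUSG00000034459, chr19:34640871-34650009, plus strand), which binds viral RNA that lacks the cap methylation of host messages, was near the detection limit. It had 5 and 0 reads in KO26F and KO23M and 0 and 10 reads in WT25F and WT22M, so 1 library of each group held reads and the groups overlapped. In CPM these were 0.276, 0, 0 and 0.562. The KO23M value was set to 0 because the gene is not listed in that library's table, and its true count may be 0 to 4. For WT25F, a count of 0 allows a level of up to 0.167 CPM. Ifit1 did not pass the filter on low counts and was not tested.

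Isg15 (ENSMUSG00000035692, chr4:156199424-156200818, minus strand), a ubiquitin-like protein that is attached to other proteins after interferon, did not follow the other effectors. It was measured at 2.59 and 2.16 CPM in KO26F and KO23M and at 1.67 and 2.59 CPM in WT25F and WT22M. WT25F was the lowest library and the groups overlapped. The log2 fold change was 0.15 (SE 0.35, edgeR unadjusted p = 0.665, adjusted p = 1), with means of 2.38 ± 0.305 and 2.13 ± 0.646 CPM (SD, n = 2 each), and it was -0.15 without WT25F.

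Levels of different members can be compared only per length of transcript. As RPKM over the exons of GENCODE vM21, the highest were Stat2 (5.73 to 6.0 over the 4 libraries), Bst2 (4.01 to 8.22), Irf9 (3.66 to 4.64) and Isg15 (2.21 to 3.43). Bst2 overlapped Irf9 in range, and it overlapped Stat2 only through WT22M, where it reached 8.22 against 4.01 to 4.94 in the other libraries. Lower lay Rtp4 (1.04 to 1.90), Irf7 (0.409 to 1.09), Oasl2 (0.234 to 0.582), Ifit3 (0.0632 to 0.612) and Ifit1 (0 to 0.212), and each neighbouring pair among these 5 overlapped in range. The ISGF3 subunits Stat2 and Irf9 thus lay above Irf7, Oasl2 and the Ifit members in each library.

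The second comparison set the KO libraries against WT25F alone, the library with undisputed wild-type labels, and the third set the carriers against each other. Both use WT25F and the first comparison shares its libraries, so their values are given side by side and are not independent. In KO against WT25F, edgeR called 0 of 8 members, against 0.345% of all genes tested (56 of 16252), and DESeq2 called 0. The median of the members was -0.34, with 6 negative and 2 positive. Irf7 had a log2 fold change of -0.80 (SE 0.41, unadjusted p = 0.0497), Ifit3 of -1.28 (SE 0.93), Oasl2 of -0.67 (SE 0.40) and Rtp4 of -0.43 (SE 0.38). Irf7 was the only member with an unadjusted p under 0.05, against 3.43% of all genes, and edgeR adjusted p was 1 for all 8. Bst2 was at -0.24 (SE 0.32), Irf9 at -0.18 (SE 0.19), Stat2 at 0.03 (SE 0.16) and Isg15 at 0.52 (SE 0.44).

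In WT22M against WT25F, which compares 2 libraries and not genotypes, edgeR called 0 of 8 members, against 0.714% of all genes tested (116 of 16252), and DESeq2 called 0. The median of the members was 0.48, with 7 positive and 1 negative, and that of all genes 0.00. Bst2 was at 0.77 (SE 0.36, edgeR unadjusted p = 0.0315, adjusted p = 0.912), the only member with an unadjusted p under 0.05, against 4.88% of all genes. Ifit3 was at 0.83 (SE 0.89), Isg15 at 0.66 (SE 0.50), Irf7 at 0.56 (SE 0.45), Rtp4 at 0.41 (SE 0.43) and Oasl2 at 0.31 (SE 0.44). Stat2 (0.07, SE 0.19) and Irf9 (0.00, SE 0.22) stood at equal levels within their errors. The members' median distance between the carriers (0.48) was thus no smaller in size than that between KO and WT25F (-0.34).

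**Figure D3:**
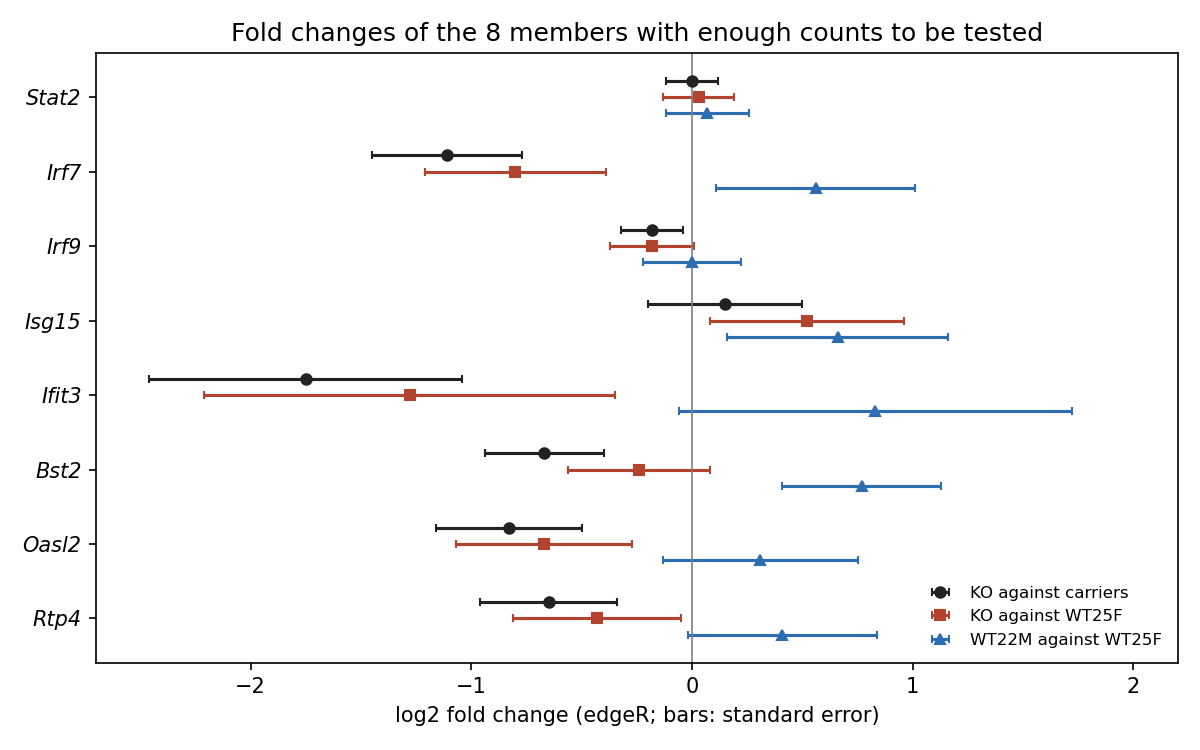
Log2 fold changes (x axis, edgeR) of the 8 tested members (y axis) for KO against carriers (black circles), KO against WT25F (red squares) and WT22M against WT25F (blue triangles), with bars for the standard error. Irf7, Ifit3, Bst2, Oasl2 and Rtp4 lie left of 0 in both KO comparisons and right of 0 for WT22M, while Stat2 and Irf9 stay within 0.18 of 0.

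In the authors' deposited tables, each of a single library against WT25F, Ifit3 (log2 fold change -2.47, adjusted p = 0.0480) and Oasl2 (-1.04, adjusted p = 0.0135) were marked as lower in KO26F. That is 2 of 9 members listed, against 1.02% of all genes in that table. For KO23M the authors' deposited table marked 0 of the 8 members listed, against 0.976% of all its genes as higher and 1.92% as lower. For WT22M the authors' deposited table marked Ifit1 as higher (4.33, adjusted p = 0.00769), 1 of 9 members against 1.19% of all genes in the table, on 10 reads against 0. The authors' deposited adjusted p for Irf7 was 0.0457 in KO26F and 0.0542 in KO23M, that for Irf9 in KO23M was 0.00459, and that for Bst2 in WT22M was 0.00187. These genes were not marked, and their absolute log2 fold changes in the authors' deposited tables were under 1, the size that every marked gene reached. These tests compare pairs of libraries without replicates.

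Upstream of the members, the groups overlapped for 5 of the pathway's 9 receptors and kinases. Both KO libraries lay beneath both carriers in 2 and above both in 2, against 13.4% and 13.6% of all genes tested. Ifnar1, the first receptor chain, was measured at 94.2 and 81.0 CPM in KO26F and KO23M and at 86.1 and 82.3 CPM in WT25F and WT22M. Ifnar2, the second, was at 20.9, 20.1, 21.3 and 22.1 CPM in the same order, slightly lower in both KO libraries (log2 fold change -0.08). Jak1 (44.0, 38.1, 44.6 and 40.4 CPM) and Tyk2 (35.2, 39.2, 37.0 and 44.2 CPM), the receptor-bound kinases, overlapped between groups. Of the 9 genes in this list, edgeR called 0, and the median log2 fold change in KO against carriers was -0.05 (3 positive, 6 negative). An unadjusted p under 0.05 was found for 1 gene, against 2.86% of all genes tested. That gene was Ifnlr1, the receptor chain of type III interferon, which reached the minimum of the filter in both KO libraries and 1 carrier, with 23, 20, 11 and 6 reads (log2 fold change 1.29, SE 0.55, edgeR unadjusted p = 0.0270, adjusted p = 1). The levels of the 20 interferon genes listed as ligands were not analysed here. Of these 20 genes, 11 held an ISRE-like match in a RefSeq promoter window (55%), against 62.5% of the members with a window.

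Irf3, the constitutive factor that starts interferon production, was even at 57.3, 57.4, 60.1 and 56.2 CPM in KO26F, KO23M, WT25F and WT22M (log2 fold change -0.02). Of 7 tested STAT and IRF genes outside the members, edgeR called 0 and 0 had an unadjusted p under 0.05, and the median was -0.02. The smallest p was that of Irf5, a factor of macrophages and other immune cells, with 31, 39, 45 and 57 reads (log2 fold change -0.58, SE 0.34, edgeR unadjusted p = 0.0964).

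Among genes that sense nucleic acid, edgeR called 0 of 14, and the median was -0.14 (6 positive, 8 negative). Of the 14, 1 had an unadjusted p under 0.05, against 2.86% of all genes tested. Mavs, the mitochondrial adaptor of RNA sensors, stood at 10.6, 10.8, 7.97 and 10.3 CPM in KO26F, KO23M, WT25F and WT22M, and the RNA sensor Ifih1 at 1.27, 1.13, 1.0 and 1.07. Both were slightly higher in the KO libraries than in the carriers (Mavs log2 fold change 0.22, unadjusted p = 0.256). Trim25, a ubiquitin ligase of RNA sensing, was at 4.58, 4.75, 5.91 and 7.19 CPM (-0.49, SE 0.23, edgeR unadjusted p = 0.0446, adjusted p = 1). Tmem173, the DNA-sensing adaptor STING, was at 1.82, 1.94, 2.73 and 3.04 CPM (-0.62, SE 0.33, unadjusted p = 0.0740).

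A list of 55 other interferon-stimulated genes showed how far the members' order of libraries extended. In 14 of the 36 tested, both KO libraries lay beneath both carriers, and in 5 they lay above, against 13.4% and 13.6% of all genes tested. The filter on low counts was passed through the carriers alone by 3 of the 36 (Oas2, Gbp3 and Gbp7), which could then only be lower in KO. The median log2 fold change of the 36 was -0.18 (11 positive, 25 negative), and edgeR called 0. An unadjusted p under 0.05 was found for 3 of the 36, against 2.86% of all genes tested. Gbp3, a guanylate-binding protein, had 7, 10, 14 and 26 reads in KO26F, KO23M, WT25F and WT22M (-1.26, SE 0.57, edgeR unadjusted p = 0.0360, adjusted p = 1). Parp14, an ADP-ribosyltransferase, had 15, 19, 32 and 30 reads (-0.90, SE 0.43, edgeR unadjusted p = 0.0490, adjusted p = 1).

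Ifit2, of the same cluster on chromosome 19 as Ifit3, lay the other way. It had 131 and 115 reads in KO26F and KO23M and 80 and 84 reads in WT25F and WT22M, so the KO libraries were the higher and did not overlap with the carriers (0.54, SE 0.23, edgeR unadjusted p = 0.0255, adjusted p = 1). Mx1, a classical antiviral GTPase, had 0, 0, 0 and 5 reads, and Rsad2, the antiviral enzyme viperin, 1, 3, 8 and 6. Irgm1, an immunity-related GTPase, had 25, 31, 14 and 53 reads, with the carriers as its extremes (WT22M against WT25F 1.95, SE 0.59, edgeR adjusted p = 0.109). The summed level of the 55 genes was 320, 306, 306 and 334 CPM in KO26F, KO23M, WT25F and WT22M, which did not separate the groups. Genes of high level weigh most in this sum, such as Adar (84.7, 79.6, 79.0 and 87.1 CPM) and Samhd1 (42.9, 40.8, 36.1 and 41.5 CPM). It therefore says little about the sparse genes of the list and is not comparable with the sum of the member effectors.

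Among genes that attach Isg15 to proteins or remove it, edgeR called 0 of 4, 0 had an unadjusted p under 0.05 and the median was -0.15. Usp18, which removes Isg15 and damps the receptor, had 8, 12, 9 and 21 reads (log2 fold change -0.62, SE 0.60, unadjusted p = 0.309), with WT22M again the highest. Herc6, the ligase, was at -0.31 and Uba7, the activating enzyme, at 0.06. Of the 8 negative regulators, edgeR called 0, 0 had an unadjusted p under 0.05 and the median was -0.03. The suppressor Socs1 had 35, 38, 52 and 37 reads (-0.32) and the phosphatase Ptpn6 60, 60, 91 and 68 reads (-0.44, edgeR unadjusted p = 0.116), with WT25F the highest in both, while the phosphatase Ptpn2 was at 0.15. Of the 4 tested paralogs of the members, edgeR called 0 and 0 had an unadjusted p under 0.05 (median -0.21), with Stat6 at -0.28, Stat5b at -0.14 and Irf4 at 0.66.

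The ISRE-like match was found in members whose groups overlapped and in members whose groups did not. Among the members and other stimulated genes that were tested and had a promoter window, both KO libraries lay beneath both carriers in 9 of 19 with a match (47.4%) and in 7 of 18 without (38.9%). Over all genes tested with a window the shares were 14.6% (58 of 398) with a match and 12.8% (1414 of 11072) without. Ifit3, with a match, passed the filter on low counts through the carriers alone, so its order was fixed by the filter. The same holds for Oas2, Gbp3 and Gbp7, and the shares were not computed without such genes. Irf7 and Oasl2, shown above without a match, had the most negative fold changes of the members after Ifit3, and Isg15 and Stat2, with matches, overlapped between groups.

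Summed markers of microglia, meninges and endothelium were lower in both KO libraries than in both carriers. Microglia and macrophage markers (17 of 17 in the files, none at 0 in any library, among them Csf1r, Cx3cr1, Aif1 and C1qa) summed to 141 and 148 CPM in the KO libraries, 152 in WT25F and 176 in WT22M. In 9 of the 17, both KO libraries lay beneath both carriers, against 13.4% of all genes tested. The median log2 fold change in KO against carriers was -0.27 (13 negative, 4 positive, 0 called by edgeR). It was -0.08 in KO against WT25F (11 negative, 6 positive) and 0.24 in WT22M against WT25F (4 negative, 13 positive). In KO against carriers, an edgeR unadjusted p under 0.05 was found for 3 of the 17, against 2.86% of all genes tested. Of these 3, Aif1 (-0.70) and Mrc1 (-0.47) were lower in KO and P2ry12 was higher. P2ry12, a receptor of resident microglia, lay the other way at 5.41, 4.75, 2.67 and 2.75 CPM (0.90, SE 0.27, edgeR unadjusted p = 0.00268, adjusted p = 0.928). The log2 difference of the summed microglial markers was -0.18, against -0.60 for the effectors of the members. Single markers ranged from -0.70 (Aif1) and -0.65 (Fcer1g) to 0.90 (P2ry12), so the sum does not give the size of each marker's difference.

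Meningeal and mesenchymal markers (9 of 9 in the files, none at 0) summed to 391 and 404 CPM in KO and to 487 and 492 CPM in carriers. In 7 of the 9, both KO libraries lay beneath both carriers, against the same 13.4%. The median log2 fold change in KO against carriers was -0.22, with all 9 negative. In the same comparison edgeR called 0 of the 9, and 4 had an unadjusted p under 0.05, against 2.86% of all genes tested. In KO against WT25F the median was -0.23, also with all 9 negative, and Aldh1a2 lay at -0.84 (SE 0.22). Endothelial markers (10 of 10, none at 0) summed to 351 and 374 CPM in KO and 386 and 399 in carriers, with a median of -0.12 in KO against carriers. Of these 10, 2 lay beneath both carriers in both KO libraries, against 13.4% of all genes tested, and 8 overlapped. Called by edgeR were 0, and 0 had an unadjusted p under 0.05. The endothelial list was thus close to all genes tested, and its lower sum is descriptive. Erythroid markers (6 of 6, none at 0) summed to 154, 150, 135 and 78.6 CPM, so WT22M, the library highest in most members, held the least of them. Cd79a, a B cell marker, had 16, 11, 9 and 14 reads in KO26F, KO23M, WT25F and WT22M. The part of these cell types in the members' values was not tested.

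**Figure D4:**
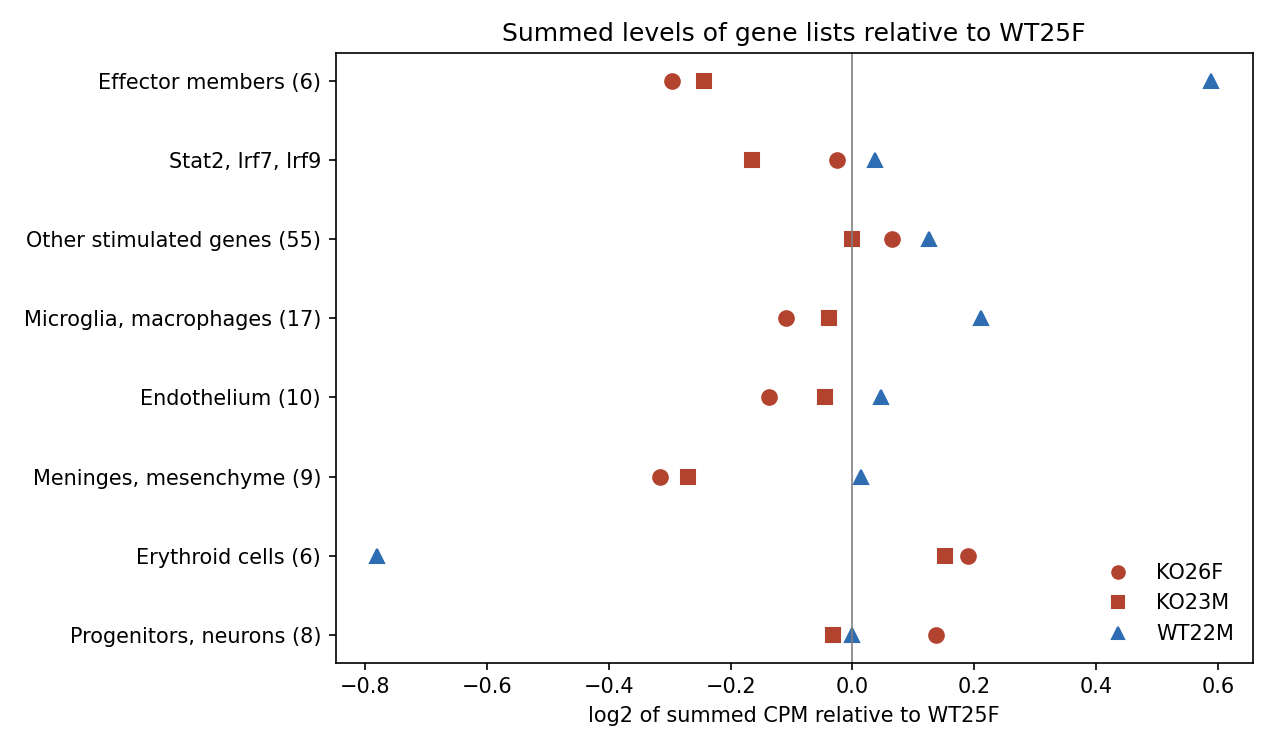
Summed CPM of each gene list (y axis, number of genes in brackets) as log2 relative to WT25F (x axis), with KO26F as red circles, KO23M as red squares and WT22M as blue triangles. The effectors of the members lie lower in both KO libraries and higher in WT22M, microglial markers lie in the same order with smaller distances, and erythroid markers are lowest in WT22M.

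The genes outside all lists whose profile over the 4 libraries lay closest to the members' median were Trpv6, Gm3756, Unc13d, Gm2464 and Pmaip1. Likeness was measured as the Euclidean distance between log2(CPM + 0.5) values centred on each gene's own mean, and the members' median profile was -0.28, -0.19, 0.11 and 0.45 in KO26F, KO23M, WT25F and WT22M. Trpv6, a calcium channel, was the closest at a distance of 0.0693, with 3.48, 3.73, 4.79 and 5.90 CPM. Gm3756, a processed pseudogene, stood at 64.1, 67.2, 80.1 and 101 CPM (distance 0.0831), and Unc13d at 1.05, 1.24, 1.62 and 2.25 CPM (0.0875). The lincRNA Gm2464 (0.0893) and Pmaip1, the apoptosis gene Noxa (0.105), followed. Among the members Rtp4 was nearest to the median (0.0522), then Bst2 (0.267), Oasl2 (0.366), Irf7 (0.390) and Ifit3 (0.472), while Irf9 (0.501), Stat2 (0.571) and Isg15 (0.708) were farthest. With 4 libraries, many genes share such an order, and no test was made.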

How the data were processed

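Per the labels' protocols, 4 libraries were built from total RNA (TruSeq kit). The submitters' processing notes name Bowtie2 2.2.3, TopHat2 2.0.12, HTSeq 0.6.0 and mm9. Gene positions in the files lie on GRCm38 instead: 20221 of the 22039 genes found in GENCODE vM21 had the identical position (91.8%). How the counting treated strand and reads with several matches was not given in the sources used here.

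Per the file headers, the authors deposited a whole-number count per gene, not normalized, beside a value in CPM, in 3 tables that each set a library against WT25F. The deposited log2 fold change, p-value and adjusted p come from an unnamed test. Joining the tables by gene identifier gave 22084 genes (19626 in all 3), with unlisted genes set to 0. CPM printed here were recomputed from the joined counts, and RPKM also uses the summed exon length. A count of 0 allows up to 3 counts, or 0.162 to 0.169 CPM, and 95% intervals and limits cover counting error only.

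Counts were tested over all genes in edgeR 4.0.16 by its quasi-likelihood test (robust, TMM, filterByExpr on both arms, 16252 genes, Benjamini-Hochberg threshold 0.05). A second fit with 3 groups gave the comparisons with WT25F alone, where each single library is assumed to vary like the KO libraries. DESeq2 1.42.0, RLE factors, other filters, a block and leaving out each library were the alternatives. The fit was also run on simulated counts with known changes. That outcome is not given here and is no measure of how well differences of the members' size would be found. Members and gene lists were chosen with earlier results of these data known. Context genes were named by a rule: a set of pathway genes, up to 3 with the smallest p in each interferon list, and 5 with the most similar profile at a mean of at least 1 CPM. Irgm1, Oas2, Gbp7, overlapping genes and single markers were named after their values were seen. Some listed genes are not reported here by name.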

Additional observations from a re-analysis of the deposited data

Results flagged for a closer look

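For 3 members the KO and carrier libraries with the letter F in their titles differed in the opposite direction to those with the letter M, and this difference between letters was not tested. Stat2 was 1.20 CPM higher in KO26F than in WT25F and -1.26 CPM in KO23M relative to WT22M, a difference of 2.46 CPM at a level near 35 CPM. For Isg15 the values were 0.921 and -0.424 CPM, a difference of 1.35 CPM. For Ifit1 they were 0.276 and -0.562 CPM, a difference of 0.838 CPM that rests on 5 and 10 reads.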

How the results depend on the processing

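Members called stayed at 0 in each comparison under each alternative run, and 138 member fold changes kept their sign and side of the threshold. Those that changed sign were Stat2 for KO against carriers (0.00 without KO23M and 0.03 without WT22M), Isg15 for KO against carriers (-0.15 without WT25F) and Irf9 for WT22M against WT25F (0.00 with DESeq2, 0.01 without a filter), all near 0 beside their errors. Over all genes, KO against carriers called 123 genes with a replicate block by title letter, and 48 to 100 with 1 library left out. KO against WT25F called 23 genes with DESeq2, 0 without a filter and 6 with the spread of the fit on both arms, and WT22M against WT25F called 33, 0 and 0. The cause was not tested.

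Leaving out 1 library moved Stat2 between -0.04 and 0.03, Isg15 between -0.15 and 0.52, Irf9 between -0.31 and -0.07, Irf7 between -1.37 and -0.80, Ifit3 between -2.88 and -1.12, Bst2 between -1.01 and -0.24, Oasl2 between -1.21 and -0.53 and Rtp4 between -0.84 and -0.43. The number of members lower in all KO libraries was 6 to 7 of 9, an alternative chosen after seeing the data. It was 7 without KO26F or WT25F and 6 without KO23M or WT22M, where 27.9% to 34.6% of all genes tested were lower. The 7 without WT25F include Ifit1, which was not tested. The labels do not say that a letter marks a shared litter or day. Deviations from the arm mean of libraries with the same letter correlated at 0.30 across 14807 genes, a hint from the data and not from the design. Under the block, which leaves 1 residual degree of freedom, edgeR adjusted p of Irf7 was 0.0908, and over its 10 alternatives it ranged from 0.0717 to 1. Depth limits Ifit1 and Ifit3 most, at 0 to 19 reads a library.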
